A study of Mus musculus with 12 samples.

Results

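Retinal bipolar cells carry the signal of rods and cones to the inner retina, and their response to an episode of raised intraocular pressure (IOP) was followed here through 8 genes chosen by name: Vsx1, Grm6, Trpm1, Nyx, Prkca, Pcp2, Cabp5 and Isl1. Each of the 8 had its own row among the 24340 rows of the expression table, and all 8 were above 0 in all 12 libraries, so that all were among the 18509 genes tested. The libraries came from whole retinas of 6 mice, all carrying the p16-3MR transgene, in which regulatory sequence of p16Ink4a drives a fusion of Renilla luciferase, a red fluorescent protein and a herpesvirus thymidine kinase. In each mouse, aged 12 to 16 weeks, 1 eye was held at 85 to 90 mm Hg for 60 min and the fellow eye served as its control, and retinas were taken on day 3. Mice 1, 2 and 5 received daily GCV (ganciclovir, 25 mg/kg), a prodrug that the viral kinase turns toxic, and mice 3, 4 and 6 received PBS. This gave 4 groups of 3 retinas: control, IOP-treated, control with GCV and IOP-treated with GCV. Because the transgene was present in every animal, its own effect cannot be separated, and the kinase acts on cells that switch p16Ink4a on, whatever their type.

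Rods release glutamate in darkness onto rod bipolar cells, and cones onto ON and OFF cone bipolar cells. In rod bipolar and ON cone bipolar cells, glutamate binds the metabotropic receptor mGluR6, which through a G protein keeps the cation channel TRPM1 shut, so that light, by lowering glutamate, opens the channel and depolarises the cell. OFF cone bipolar cells use ionotropic glutamate receptors instead. Of the 8 genes, Grm6 encodes mGluR6, Trpm1 the channel and Nyx nyctalopin, a leucine-rich-repeat protein of the same synapse. Prkca (protein kinase C alpha) and Pcp2 (Purkinje cell protein 2, a modulator of G proteins) are standard labels of rod bipolar cells, Pcp2 also of some cone bipolar cells. Cabp5 is a calcium-binding protein of rod bipolar and some cone bipolar cells. Vsx1 is a homeodomain factor of cone bipolar cells, and Isl1 a LIM homeodomain factor of ON bipolar cells that ganglion cells and starburst amacrine cells express as well.

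In the mm10 annotation the 8 genes lie on 6 chromosomes: Grm6 (chr11:50850685-50866208, plus strand), Trpm1 (chr7:64153835-64269775, plus), Nyx (chrX:13466110-13489313, plus), Prkca (chr11:107933387-108343928, minus), Pcp2 (chr8:3623371-3625545, minus), Cabp5 (chr7:13398132-13408887, plus), Vsx1 (chr2:150680702-150689360, minus) and Isl1 (chr13:116298281-116309689, minus). Exons of Pcp2 share 941 of their 1828 bases with Pet100 on the other strand, and those of Grm6 share 599 of 5421 with the antisense gene Gm12660. The library kit marks strand, but whether the counting used it is not stated, so the values of these genes may hold reads of their partners. Pet100 had 35.6 to 52.2 FPKM in the 6 control and 41.7 to 95.2 FPKM in the 6 IOP-treated retinas.

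OTX2 and CRX, homeodomain factors of photoreceptors and bipolar cells, bind the core TAATCC. It was searched in the 250 bases before each RefSeq start (build GRCm38.p6) on both strands, where the other strand reads GGATTA. The 8 genes have 12 such windows, since some have several starts, and the motif was present in 3 of the 12, each of another gene, and in 6.25% of all 32851 windows. The 3 windows are given below 5′ to 3′ on the strand of the gene, with the motif in capitals. The match begins 160 and 41 bases before the start of Cabp5, 34 before that of Trpm1 (on the other strand) and 177 before that of Isl1. A match describes the letters only, and a second annotated start of Trpm1 had none.
Cabp5, chr7:13397905-13398154, plus strand: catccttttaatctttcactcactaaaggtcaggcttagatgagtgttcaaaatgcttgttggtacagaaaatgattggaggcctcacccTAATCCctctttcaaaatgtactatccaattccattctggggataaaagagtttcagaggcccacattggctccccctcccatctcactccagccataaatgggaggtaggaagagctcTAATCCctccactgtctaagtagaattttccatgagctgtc
Trpm1, chr7:64153585-64153834, plus strand: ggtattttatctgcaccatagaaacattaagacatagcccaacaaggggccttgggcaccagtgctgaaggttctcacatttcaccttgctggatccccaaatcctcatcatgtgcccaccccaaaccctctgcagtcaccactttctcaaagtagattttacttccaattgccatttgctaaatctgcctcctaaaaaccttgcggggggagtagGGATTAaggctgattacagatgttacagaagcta
Isl1, chr13:116309689-116309938, minus strand: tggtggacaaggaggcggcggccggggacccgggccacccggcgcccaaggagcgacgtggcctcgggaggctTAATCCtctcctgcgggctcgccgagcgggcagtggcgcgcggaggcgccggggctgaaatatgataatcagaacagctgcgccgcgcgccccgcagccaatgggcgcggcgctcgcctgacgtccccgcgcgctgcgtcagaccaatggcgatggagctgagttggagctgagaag

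The estimated depth was 6840000 to 9040000 fragments in 11 libraries and 3970000 in the IOP-treated retina of mouse 6, which also had 14844 genes above 0 against 16044 to 16593 in the others. Replicates differed more after IOP elevation: the median SD of log2(FPKM + 1) over genes was 0.119 in control and 0.343 in IOP-treated retinas, and 0.14 and 0.199 with GCV. The IOP-treated retina of mouse 4 stood apart in its ganglion cell markers, which were close to those of its fellow eye (median log2 difference -0.034 over 13 markers, against -0.625 to -1.92 in the other 5 mice). Results are therefore also given without these 2 libraries. Lens genes were found in most IOP-treated retinas and in the control retina of mouse 1, with a summed level of 69.8 to 135 FPKM in control, 303 to 6060 in IOP-treated retinas, and with GCV 157 to 9330 in control and 4010 to 7860 FPKM in IOP-treated retinas. Their part in the results below was not tested.

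In the 6 control retinas, levels per length of transcript (FPKM, fragments per kilobase relative to library size) spanned a wide range. Pcp2 was highest at 261 ± 39.2 FPKM (SD, n = 6), followed by Cabp5 at 55.9 ± 10.1, Trpm1 at 44.1 ± 12.2, Prkca at 43.6 ± 1.09, Isl1 at 24.0 ± 3.96, Grm6 at 13.9 ± 1.76, Vsx1 at 7.29 ± 1.78 and Nyx at 4.45 ± 0.747 FPKM. The ranges of Cabp5 and Trpm1, of Trpm1 and Prkca, and of Vsx1 and Nyx overlapped, and those of the other neighbours in this order did not. Spread differed between the genes: the coefficient of variation over the 6 control retinas was 2.50% for Prkca, the lowest of the 8, and 27.7% for Trpm1, the highest. Over the 6 IOP-treated retinas it was 22.1% for Prkca and 61.9% for Grm6.

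After IOP elevation the mean level of all 8 genes was lower, both without and with GCV, but none of the 8 passed an adjusted p of 0.05 in any comparison. The median of their log2 differences was -0.582 without GCV, -0.649 with GCV and -0.645 when both were averaged, where the medians over all tested genes were 0.0, 0.004 and 0.0089. Genes with a difference below 0 made up 48.6%, 46.4% and 48.1% of all genes in these comparisons. Called genes, at an adjusted p under 0.05 in limma, made up 1.65%, 1.8% and 12.2%. At an unadjusted p under 0.05, 1 of the 8 was lower without GCV, 3 with GCV and 5 averaged, against 9.42%, 9.15% and 16.1% of all genes. Since whole retinas were sequenced, fewer bipolar cells and less RNA of these genes per cell cannot be told apart.

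**Figure D1:**
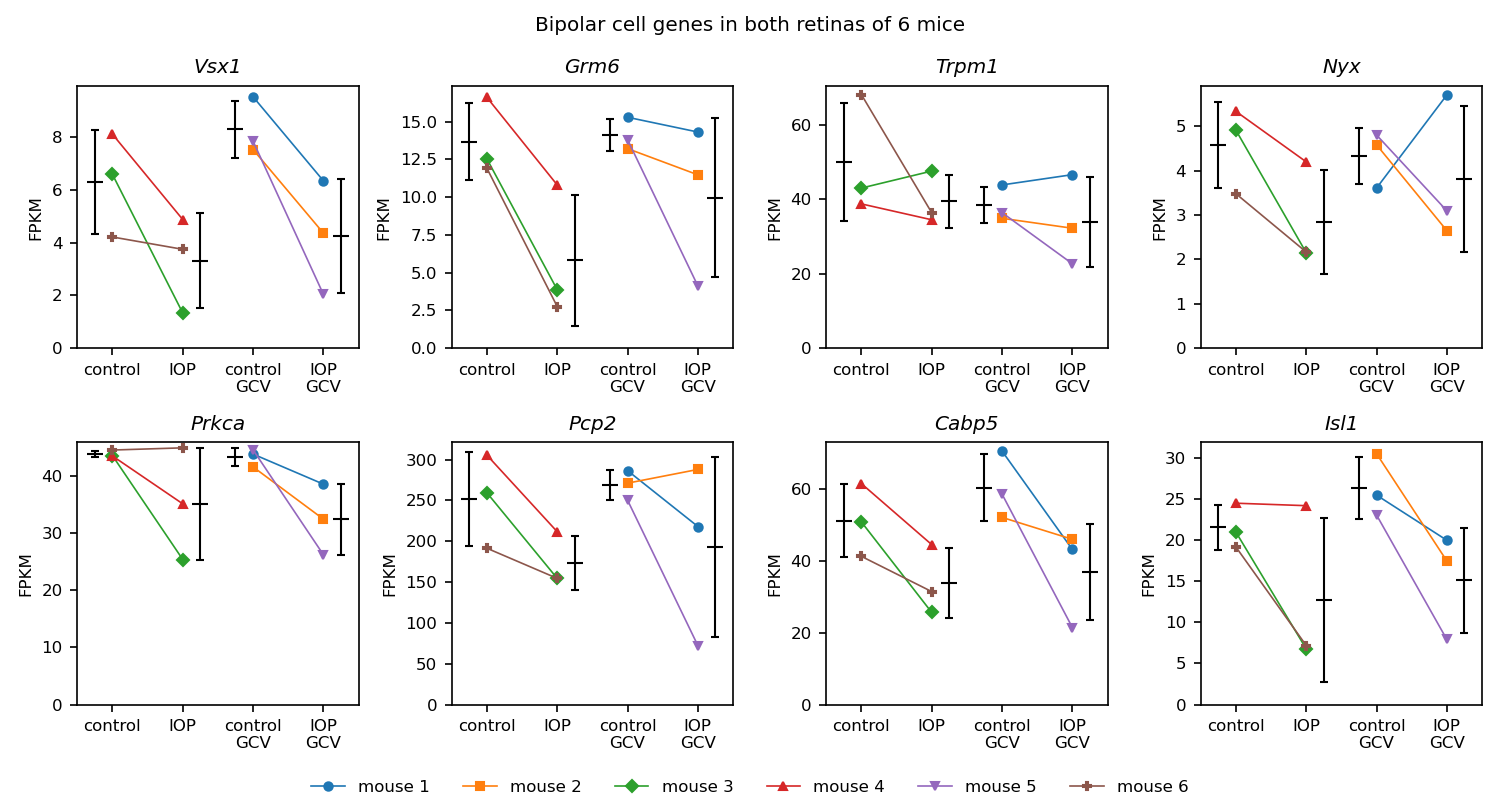
Level (FPKM, axis from 0) of each of the 8 genes in the 12 retinas, with a line joining the eyes of each mouse and a black bar with whiskers for the mean and SD of each group (n = 3). Vsx1, Grm6, Cabp5 and Isl1 were lower in the IOP-treated eye of all 6 mice, and Trpm1, Nyx, Prkca and Pcp2 were not.

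Grm6, the receptor of the ON pathway, had 12.5, 16.6 and 11.9 FPKM in the control retinas of mice 3, 4 and 6, and 3.87, 10.8 and 2.76 FPKM in their IOP-treated retinas. With GCV, mice 1, 2 and 5 had 15.3, 13.2 and 13.8 FPKM in the control and 14.3, 11.5 and 4.12 FPKM in the IOP-treated retina. Without GCV all IOP-treated retinas lay below all control retinas, and with GCV the groups overlapped through the IOP-treated retina of mouse 1. Mice 1 and 2 were at 93.6% and 86.9% of the level of the fellow eye. Mice 3, 5 and 6 were at 30.9%, 29.9% and 23.2%, and mouse 4 was at 65.1%. The log2 difference of FPKM + 1 was -1.28 without GCV (standard error 0.45, adjusted p = 0.2), -0.60 with GCV (standard error 0.45, adjusted p = 0.524) and -0.94 averaged (standard error 0.32, adjusted p = 0.0778, limma). Grm6 was the only one of the 8 genes whose groups did not overlap without GCV, where 8.81% of all genes had every IOP-treated below every control retina.

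Nyx, at the lowest level of the 8, had 4.91, 5.34 and 3.48 FPKM in the control and 2.15, 4.20 and 2.17 FPKM in the IOP-treated retinas of mice 3, 4 and 6. In mice 1, 2 and 5 the values were 3.61, 4.58 and 4.80 FPKM in the control and 5.71, 2.65 and 3.10 FPKM in the IOP-treated retinas. The groups overlapped in both treatments, and mouse 1 was the exception in direction, with 158% of the fellow eye's level. The averaged log2 difference of Nyx was -0.38 (standard error 0.20, adjusted p = 0.228, limma).

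Trpm1, the channel that mGluR6 controls, had a smaller averaged difference than Grm6. Their 95% intervals overlapped (-0.68 to 0.15 for Trpm1, -1.65 to -0.23 for Grm6), and no test between the 2 genes was made. Control retinas of mice 3, 4 and 6 had 43.0, 38.7 and 68.1 FPKM, and the IOP-treated retinas 47.6, 34.5 and 36.4 FPKM. With GCV, the control retinas of mice 1, 2 and 5 had 43.8, 34.9 and 36.4 FPKM and the IOP-treated ones 46.6, 32.2 and 22.7 FPKM. The IOP-treated eye was lower in 4 of 6 mice and slightly higher in mice 1 and 3, at 106% and 111% of the fellow eye. In mouse 3, Grm6 was at 30.9% in the same retina. The averaged log2 difference of Trpm1 was -0.27 (standard error 0.19, adjusted p = 0.385), the smallest of the 8.

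The ratio of Trpm1 to Grm6 ran from 2.33 to 5.72 in control retinas, 3.19 to 13.2 in IOP-treated retinas, and with GCV from 2.64 to 2.87 in control and 2.81 to 5.5 in IOP-treated retinas. Over the 12 libraries, Pearson correlations of log2(FPKM + 1) between Trpm1 and the other 7 genes were 0.103 to 0.408, while the 21 pairs without Trpm1 had 0.484 to 0.952. These points share libraries, and the values are given as a description. Trpm1 is also expressed by pigment cells, and the retinas differed in pigment cell RNA. Dct, an enzyme of melanin synthesis, had 21.8, 9.42 and 158 FPKM in the control retinas of mice 3, 4 and 6 and 154, 6.86 and 132 FPKM in their IOP-treated retinas. In mice 1, 2 and 5 it had 23.1, 8.92 and 5.90 FPKM in the control and 52.4, 18.4 and 7.55 FPKM in the IOP-treated retinas.

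The highest Trpm1 value, in the control retina of mouse 6, thus came from the library with the highest Dct, and the IOP-treated retina of mouse 3, second for both, had 154 FPKM of Dct against 21.8 in its fellow eye. The IOP-treated retina of mouse 6 did not follow this order: it had the third highest Dct, 132 FPKM, and 36.4 FPKM of Trpm1, 53.4% of its fellow eye. Over the 12 libraries the correlation of Trpm1 was 0.675 with Dct, 0.673 with Mlana and 0.677 with Tyrp1, 2 further pigment cell genes. Grm6 had -0.437, -0.356 and -0.439 with these 3 genes. None of the 13 pigment cell and retinal pigment epithelium markers was called in the averaged comparison, where 7 were lower and 6 higher (median log2 difference -0.009). Their summed level was 89.4 to 467 FPKM in control, 65.8 to 480 in IOP-treated, and with GCV 27.8 to 313 in control and 70.3 to 132 FPKM in IOP-treated retinas, with no marker at 0 in all control retinas. How much of the Trpm1 value came from pigment cells was not tested.

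**Figure D2:**
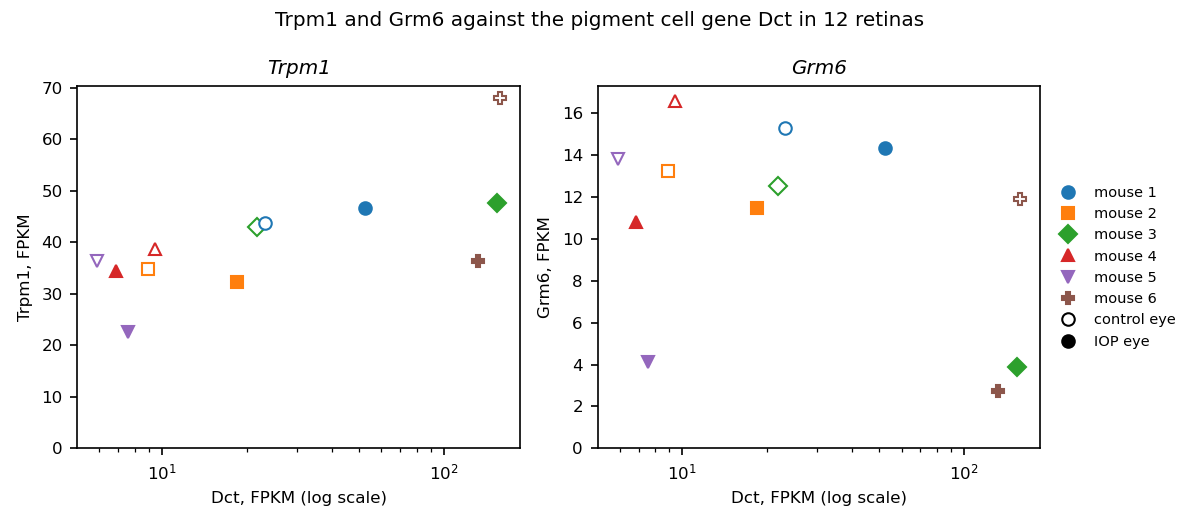
Level of Trpm1 (left) and Grm6 (right) in FPKM (axis from 0) against Dct in FPKM (log axis) in 12 retinas; open symbols are control eyes, filled symbols IOP-treated eyes, and each shape is a mouse. The control retina of mouse 6 (Trpm1 68.1, Dct 158 FPKM) and the IOP-treated retina of mouse 3 (47.6 and 154 FPKM) hold the 2 highest Trpm1 values, the IOP-treated retina of mouse 6 had 36.4 FPKM of Trpm1 at the third highest Dct (132 FPKM), and Grm6 in the IOP-treated retinas of mice 3 and 6 was 3.87 and 2.76 FPKM.

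Of the rod bipolar labels, Prkca was nearly constant in control retinas, with 43.5, 43.5 and 44.5 FPKM in mice 3, 4 and 6 and 43.8, 41.6 and 44.5 FPKM in mice 1, 2 and 5. In IOP-treated retinas it had 25.4, 35.1 and 44.9 FPKM without GCV and 38.5, 32.4 and 26.2 FPKM with GCV. All 5 retinas other than that of mouse 6 lay below every control retina, and with GCV the groups did not overlap. The log2 difference of Prkca was -0.35 without GCV (standard error 0.19, adjusted p = 0.325), -0.42 with GCV (standard error 0.19, adjusted p = 0.246) and -0.39 averaged (standard error 0.13, adjusted p = 0.077, limma). The IOP-treated retina of mouse 6, the library of lowest depth, was at 101% of its fellow eye for Prkca and at 23.2% for Grm6, and the ratio of Prkca to Grm6 there was 16.3, against 2.62 to 3.74 in control retinas without or with GCV and 2.69 to 6.55 in the other IOP-treated retinas.

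Pcp2, the most abundant of the 8, had 259, 305 and 191 FPKM in the control and 154, 212 and 155 FPKM in the IOP-treated retinas of mice 3, 4 and 6. With GCV the control retinas of mice 1, 2 and 5 had 287, 271 and 250 FPKM and the IOP-treated ones 218, 288 and 72.2 FPKM. The groups overlapped in both treatments. Mouse 2 was at 106% of its fellow eye and mouse 5 at 28.9%. The averaged log2 difference of Pcp2 was -0.61 (standard error 0.29, adjusted p = 0.195, limma). Pet100, which overlaps it, had 42.9, 45.2 and 35.6 FPKM in the control and 54.5, 50.96 and 95.2 FPKM in the treated eyes of mice 3, 4 and 6. In mice 1, 2 and 5 it had 52.2, 36.8 and 39.0 against 41.7, 59.2 and 46.4 FPKM. Pet100 was thus higher in the treated eye of all mice but mouse 1, and its part in the Pcp2 values was not tested.

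Cabp5 had 50.9, 61.6 and 41.3 FPKM in the control and 25.7, 44.6 and 31.5 FPKM in the IOP-treated retinas of mice 3, 4 and 6. In mice 1, 2 and 5 it had 70.7, 52.2 and 58.7 FPKM in the control and 43.2, 46.1 and 21.5 FPKM in the IOP-treated retinas. The level was lower in all 6 mice, at 36.6% to 88.3% of the fellow eye, and the GCV groups did not overlap. Cabp5 came closest to the threshold in the averaged comparison, with a log2 difference of -0.68 (standard error 0.21, adjusted p = 0.0565). It was -0.60 without GCV (adjusted p = 0.291) and -0.76 with GCV (adjusted p = 0.195, limma).

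The transcription factor of cone bipolar cells, Vsx1, had 6.58, 8.10 and 4.21 FPKM in the control and 1.33, 4.87 and 3.74 FPKM in the IOP-treated retinas of mice 3, 4 and 6. With GCV, mice 1, 2 and 5 had 9.51, 7.52 and 7.83 FPKM in the control and 6.33, 4.36 and 2.04 FPKM in the IOP-treated retinas. Every mouse was lower in the treated eye, from 20.3% in mouse 3 to 88.9% in mouse 6, and the groups were apart with GCV but not without. The log2 difference of Vsx1 was -0.82 without GCV (standard error 0.39, adjusted p = 0.284), -0.91 with GCV (standard error 0.39, adjusted p = 0.241) and -0.87 averaged (standard error 0.28, adjusted p = 0.065, limma).

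Isl1 had 20.99, 24.5 and 19.2 FPKM in the control and 6.78, 24.2 and 7.18 FPKM in the IOP-treated retinas of mice 3, 4 and 6. In mice 1, 2 and 5 the control retinas had 25.5, 30.5 and 23.1 FPKM and the IOP-treated ones 20.0, 17.5 and 7.92 FPKM. Mouse 4 was at 98.8% of its fellow eye, and mice 3, 5 and 6 were at 32.3%, 34.3% and 37.4%. The averaged log2 difference of Isl1 was -0.89 (standard error 0.31, adjusted p = 0.0811, limma). Of the other neurons that express Isl1, 12 of 13 ganglion cell markers and 1 of 5 starburst amacrine markers were called lower in the averaged comparison, against 5.44% of all genes, with medians of -1.27 and -0.87. The summed level of the ganglion cell markers was 961 to 1230 FPKM in control, 231 to 1060 in IOP-treated, and with GCV 1200 to 1970 in control and 352 to 776 FPKM in IOP-treated retinas. That of the starburst markers was 21.5 to 26.4, 8.52 to 23.4, 22.1 to 31.6 and 13.7 to 25.5 FPKM in the same order. Within this sum Sox2, the most abundant of the 5, had 10.1 ± 1.23 FPKM over the control and 10.4 ± 3.86 over the treated eyes (SD, n = 6 each). Between the same eyes the mean of Chat went from 6.26 to 2.64 FPKM, Slc18a3 from 4.12 to 1.70, Slc5a7 from 3.03 to 1.36 and Megf10 from 1.79 to 1.48. The share of ganglion and starburst amacrine cells in the Isl1 values was not tested.

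Compared mouse by mouse, 4 of the 8 genes (Vsx1, Grm6, Cabp5 and Isl1) were lower in the treated eye of all 6 mice, as were 10.1% of all genes. With GCV, 4 of the 8 (Vsx1, Prkca, Cabp5 and Isl1) had every IOP-treated retina below every control retina, against 15.3% of all genes, and none of the 8 did over 6 against 6 retinas, against 2.44%. From mouse 1 to mouse 6, 6, 7, 7, 8, 8 and 7 of the 8 were lower in the treated eye. The median log2 difference of the 8 between the eyes was -0.258, -0.268, -0.934, -0.379, -1.42 and -0.441 in mice 1 to 6. Mouse 5, with GCV, and mouse 3, without, thus had the lowest values, and mice 1 and 2, both with GCV, had those closest to 0.

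Each library was left out in turn, and the number of the 8 called without GCV and averaged then depended most on the IOP-treated retina of mouse 4. This library was singled out by its small difference from the fellow eye in ganglion cell markers, so the calls gained without it follow in part from that choice and are not independent evidence of a lower level. Without it, and without GCV, Grm6 had a log2 difference of -1.76 (adjusted p = 0.0215) and Isl1 of -1.49 (adjusted p = 0.0181), and averaged, Isl1 (-1.17, adjusted p = 0.00452), Grm6 (-1.18, 0.0109), Cabp5 (-0.79, 0.0214) and Vsx1 (-1.002, 0.0269) were called by limma. These were 2 and 4 of the 8, and in the same fits 13.5% and 24.5% of all genes were called. The median of the 8 became -0.807 without GCV and -0.736 averaged. Leaving out the IOP-treated retina of mouse 6 instead gave medians of -0.552 and -0.618, and Prkca alone was called (-0.48, adjusted p = 0.0263, averaged), where 10.2% of all genes were. All 8 differences stayed below 0 in each of these fits. With mouse as a block, so that each treated eye was compared with its fellow eye, none of the 8 was called in any comparison. Of all genes, 0.405% were called in this fit without GCV, 0.778% with GCV and 7.3% averaged. The averaged adjusted p of Cabp5, Isl1, Grm6, Vsx1 and Prkca in limma with the block was 0.0586, 0.0641, 0.065, 0.0739 and 0.0967.

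Whether GCV altered the response of the 8 genes was tested as the difference between the IOP effects with and without GCV. No gene passed, among the 8 or among all genes (0 called, and 1.93% at an unadjusted p under 0.05, none of them among the 8). The estimates for the 8 lay between -0.17 and 0.67 on the log2 scale, 4 on either side of 0 (49.3% of all genes were below 0), with adjusted p of 0.997 to 1. Intervals were wide: the 95% interval was -0.75 to 2.09 for Grm6, the largest estimate, -1.32 to 1.14 for Vsx1, -1.28 to 1.46 for Isl1 and -0.66 to 0.51 for Prkca. Differences in response within these intervals cannot be told from 0 here.

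Direct comparison of IOP-treated retinas with and without GCV also called none of the 8 (adjusted p from 0.819 to 1), with estimates from -0.26 for Trpm1 to 0.73 for Grm6, and 0 of all genes were called (4.18% at an unadjusted p under 0.05, none of the 8). In control retinas GCV against none gave estimates from -0.34 for Trpm1 to 0.38 for Vsx1, an adjusted p of 1 for each, and again 0 of all genes called (1.59% at an unadjusted p under 0.05, none of the 8). The control groups are shared with the IOP comparisons, so these values are not independent of them.

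**Figure D3:**
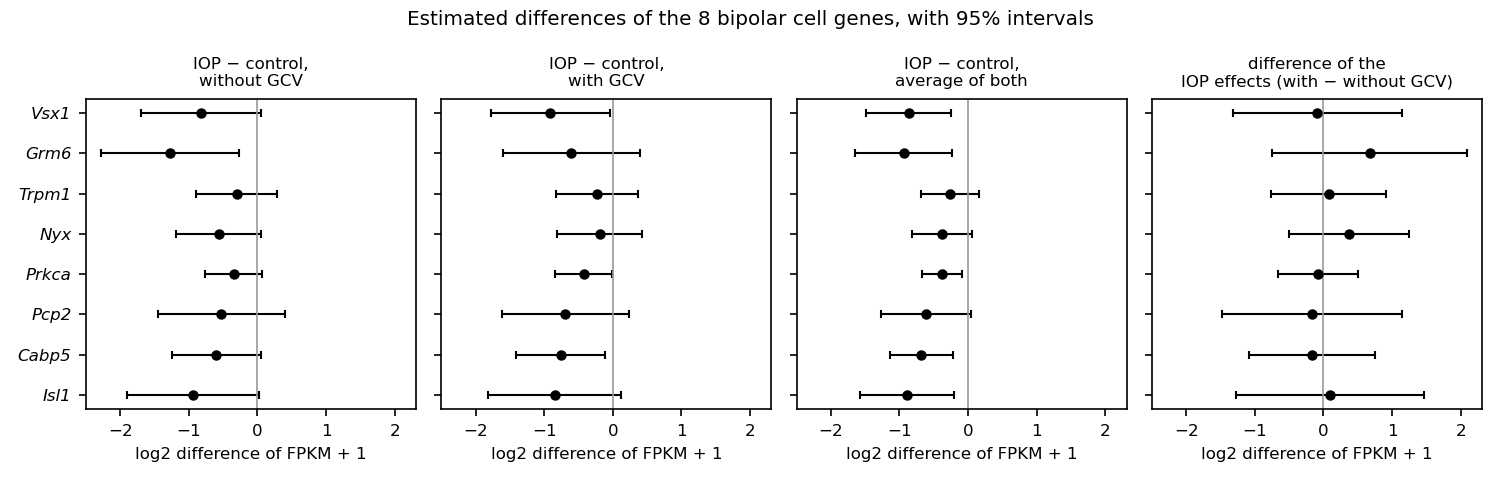
Estimated log2 difference of FPKM + 1 (points) with its 95% interval (whiskers) for the 8 genes: IOP-treated minus control retinas without GCV, with GCV and averaged, and the difference between the IOP effects. All points of the 3 IOP comparisons lie below 0, and every interval of the last panel spans 0.

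Around mGluR6 and TRPM1 sit the other proteins of the cascade, and 9 of their genes were examined. The G protein subunits are Gnao1 (alpha), Gnb3 (beta) and Gng13 (gamma), the proteins that shorten its activity are Rgs7, Rgs11, their partner Gnb5 and the anchor Rgs9bp, and Gpr179 and Lrit3 are membrane proteins that organise the synapse. Averaged over both treatments 8 of the 9 had a difference below 0 (median -0.634), 2 were called lower and 1 higher, where 5.44% and 6.76% of all genes were. Gnao1 fell from 131 ± 22.0 FPKM over the control eyes to 70.0 ± 33.2 over the treated eyes (SD, n = 6 each), with a log2 difference of -1.01 (standard error 0.29, adjusted p = 0.0483, limma). Rgs7 fell from 21.5 ± 3.60 to 11.0 ± 6.01 FPKM between the same eyes (SD, n = 6 each), with a log2 difference of -1.05 (standard error 0.30, adjusted p = 0.0473, limma). Both calls were lost in 10 of 12 fits that left out a library, and that of Gnao1 also with mouse as a block (adjusted p = 0.0514). The 2 genes are also widely expressed in other retinal neurons, among them amacrine and ganglion cells. Over the control eyes Gnb5 had 441 and Rgs9bp 141 FPKM, against 13.9 for Grm6. How far cells other than bipolar cells contributed to the values of the 9 genes was not tested.

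Gnb3, shared by ON bipolar cells and cones, was the exception and rose in every mouse. It had 283, 264 and 248 FPKM in the control and 710, 485 and 843 FPKM in the IOP-treated retinas of mice 3, 4 and 6. With GCV it had 263, 215 and 244 FPKM in the control and 428, 583 and 697 FPKM in the IOP-treated retinas of mice 1, 2 and 5. No treated retina overlapped a control retina, and the treated eye stood at 162% to 339% of its fellow eye. Gnb3 was called without GCV (log2 difference 1.32, standard error 0.23, adjusted p = 0.0251), with GCV (1.22, standard error 0.23, adjusted p = 0.0284) and averaged (1.27, standard error 0.16, adjusted p = 0.00149), and in all 12 averaged fits that left out a library. In the fits without and with GCV it was called in 6 and 5 of 12, with adjusted p of at most 0.114 and 0.134. With mouse as a block it remained called averaged (adjusted p = 0.0164), but not without GCV (0.094) or with GCV (0.097). Of the 10 cone markers, which include Gnb3, Arr3 was the other called gene, and it was lower; their median was -0.222.

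Gpr179, whose protein binds mGluR6 and the RGS proteins, had the highest correlation with Grm6 of 9286 genes whose mean reached 5 FPKM (Pearson r = 0.983 over 12 libraries). It had 10.1 to 13.4 FPKM in the control and 3.82, 9.20 and 3.38 FPKM in the IOP-treated retinas of mice 3, 4 and 6, and 10.5 to 11.6 against 9.60, 9.30 and 3.62 FPKM in those of mice 1, 2 and 5. All 6 IOP-treated retinas lay below all 6 control retinas, and the ratio of Gpr179 to Grm6 stayed between 0.671 and 1.22. Its averaged log2 difference was -0.81 (standard error 0.26, adjusted p = 0.0626). Lrit3 differed from it, with 22.1 ± 3.31 FPKM over the control and 21.7 ± 4.52 over the treated eyes (SD, n = 6 each) and a log2 difference of -0.03 (adjusted p = 0.884). Gng13 had a log2 difference of -0.63 (adjusted p = 0.0567), Rgs11 of -0.73 (0.159), Rgs9bp of -0.42 (0.061) and Gnb5 of -0.22 (0.235).

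**Figure D4:**
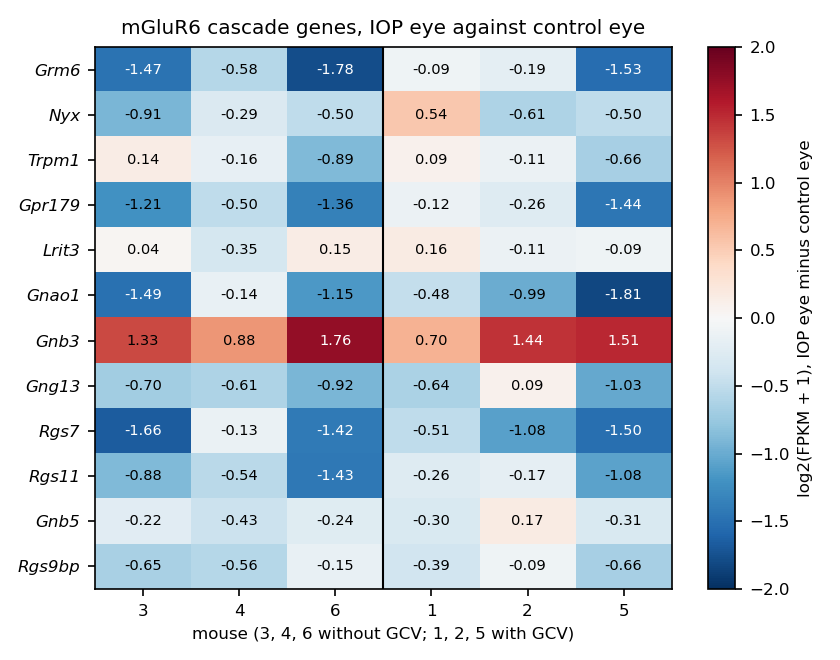
Difference of log2(FPKM + 1) between the IOP-treated and the control eye of each mouse (columns) for Grm6, Nyx, Trpm1 and 9 partner genes (rows), with blue for lower and red for higher in the treated eye. Gnb3 was higher in all 6 mice (0.70 to 1.76), Grm6 and Gpr179 were lower in all 6, and Trpm1 and Lrit3 took both signs.

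Genes of the bipolar lineage and of its classes were read from the same fit. Of 12 transcription factors none was called and 10 had a difference below 0 (median -0.537), where 12.2% of all genes were called and 48.1% were below 0. Otx2, the most abundant of them, had 103 ± 4.34 FPKM over the control and 116 ± 23.7 over the treated eyes (SD, n = 6 each; log2 difference 0.15, adjusted p = 0.451), and Sebox had -0.46 (adjusted p = 0.0741). Otx2 is also a factor of photoreceptors. Prdm8, named here after its values were seen, had 22.2 to 29.9 FPKM in 11 libraries and 102 FPKM in the IOP-treated retina of mouse 6.

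All 10 rod bipolar markers had a difference below 0 (median -0.646), and 3 were called lower, where 48.1% of all genes were below 0 and 5.44% were called lower. Gramd1b fell from 6.03 to 5.42 on the log2 scale without GCV (adjusted p = 0.0474, in 3 of 12 fits that left out a library, and 0.101 with mouse as a block). With GCV its log2 difference was -0.44 and was not called (adjusted p = 0.116, limma). Averaged over both treatments its log2 difference was -0.53 (standard error 0.09, adjusted p = 0.00728), with the treated eye lower in all 6 mice. Strip2 (-0.88, adjusted p = 0.0469) and Ablim1 (-0.26, adjusted p = 0.045) were called only when averaged, and Trnp1, the most abundant, was not (-0.78, adjusted p = 0.16). Of 11 OFF cone bipolar markers 10 were below 0 (median -0.81), and 6 were called lower, read against the same shares: the protocadherins Pcdh10 (-1.40, adjusted p = 0.0464) and Pcdh17 (-0.71, 0.0403), the auxiliary kainate receptor subunit Neto1 (-0.82, 0.0405), the protein kinase A subunit Prkar2b (-0.81, 0.0429), the muscarinic receptor Chrm2 (-0.69, 0.0375) and Slitrk5 (-0.95, 0.0411). With mouse as a block in limma, where 7.3% of all genes were called, these 6 were not (adjusted p from 0.0502 to 0.0699). Strip2 (0.0627) and Ablim1 (0.0962) lost their call there too. Grik1, a kainate receptor of OFF bipolar cells, had -0.59 (adjusted p = 0.144) and Nnat 0.11 (0.802). Some of these genes are expressed in amacrine or ganglion cells too, and how far those cells contributed was not tested.

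Of 11 ON cone bipolar markers 9 were below 0 (median -0.507), none was called lower and 1, the potassium channel gene Kcng4, was called higher, against 48.1% of all genes below 0, 5.44% called lower and 6.76% called higher. Kcng4 had 8.02, 8.20 and 5.73 FPKM in the control and 17.5, 14.7 and 19.8 FPKM in the IOP-treated retinas of mice 3, 4 and 6. In mice 1, 2 and 5 it had 8.42, 10.3 and 8.999 FPKM in the control and 13.5, 15.2 and 18.3 FPKM in the IOP-treated retinas. The groups were apart, with the treated eye at 147% to 345% of its fellow eye. The log2 difference of Kcng4 was 1.14 without GCV (adjusted p = 0.0126, in 10 of 12 fits that left out a library, and 0.0748 with mouse as a block), 0.70 with GCV (adjusted p = 0.0668, not called) and 0.92 averaged (standard error 0.12, adjusted p = 0.00144, limma). Scgn, the calcium sensor secretagogin, had -0.82 (adjusted p = 0.0776) and Cck -1.21 (adjusted p = 0.0943).

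Over the 5 lists, 47 of 53 genes had an averaged difference below 0 and 30 were lower in the treated eye of all 6 mice, against 48.1% and 10.1% of all genes. Of the 53, 11 were called lower and 2 higher, against 5.44% and 6.76% of all genes. These shares are over 18509 genes above 0 in at least 1 library, of which 13411 reached 1 FPKM in 3 or more libraries. No share over genes of a like level was taken. Only Gnb3, Kcng4 and Gramd1b were called in all 12 averaged fits that left out a library. The other 10 called genes lost their call in 10 or 11 of these fits and kept it when the IOP-treated retina of mouse 4 was left out, where 41 of the 53 were called, against 24.5% of all genes in that fit. With mouse as a block 4 of the 13 remained called, against 7.3% of all genes called in that fit: Gnb3, Kcng4 (adjusted p = 0.0193), Gramd1b (0.0239) and Rgs7 (0.0483).

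The order of the mice differed between the 8 genes and markers of other cells. In mouse 2, 7 of the 8 were lower in the treated eye (median -0.268), while 0 of 16 rod markers were lower (median 0.258). In mouse 4, all 8 were lower (median -0.379), 15 of 16 rod markers were lower (median -0.608), and ganglion cell markers were close to the fellow eye (-0.034). In mouse 5 the medians were -1.42 for the 8, -0.462 for rods, -1.57 for amacrine cells and -1.83 for ganglion cells. Averaged over the mice, the median log2 difference was -0.236 for rods with 0 of 16 called, -0.984 for 11 amacrine markers with 6 called lower, -0.402 for 10 Müller glia markers with 3 called lower and 2 higher, 2.72 for 8 reactive glia markers with 8 called higher and 2.37 for 15 microglia and leukocyte markers with 12 called higher. Of all genes, 12.2% were called in that comparison, 5.44% lower and 6.76% higher.

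In each of the 6 mice the median of the 8 lay between that of the rod and that of the ganglion cell markers. So did the medians of the amacrine markers, the cascade partners, and the OFF and ON cone bipolar markers. In mouse 4 the order was reversed, with rods at -0.608 and ganglion cells at -0.034. No test of a difference between lists was made. FPKM values are relative to the whole library. The 8 genes summed to 384 to 504 FPKM in control, 267 to 370 in IOP-treated, and with GCV 439 to 499 in control and 160 to 435 FPKM in IOP-treated retinas. Microglia and leukocyte markers, led by Lyz2, summed to 59.7 to 132, 584 to 1360, 70.3 to 91.7 and 391 to 2870 FPKM in the same order, with the highest value in the IOP-treated retina of mouse 5, where the 8 genes had their lowest sum. The part of such shifts in cell makeup in the values of the 8 was not tested.

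**Figure D5:**
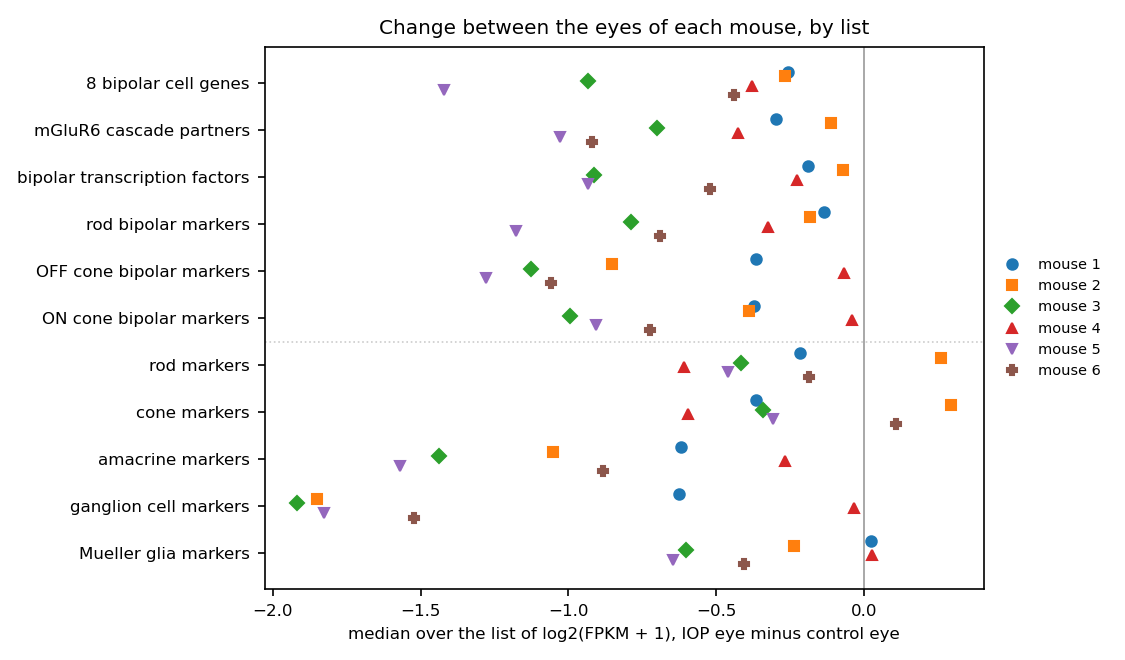
Median over each list of the difference in log2(FPKM + 1) between the IOP-treated and the control eye, 1 symbol per mouse, for the 8 genes and 5 bipolar lists (above the dotted line) and 5 other retinal cell types (below). Medians of the 8 genes lie between -1.42 (mouse 5) and -0.258 (mouse 1), and those of rods between -0.608 (mouse 4) and 0.258 (mouse 2).

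For each of the 8, the 3 genes with the most similar level across the 12 libraries were listed by Pearson r of log2(FPKM + 1), as a description with no test. Besides Gpr179, Grm6 had Slc24a4 (0.976) and Drd2 (0.973). For Vsx1 they were Lrtm1 (0.979), Syt9 (0.97) and Gabrr1 (0.961), a GABA receptor subunit of rod bipolar cells, and for Cabp5 Scg5 (0.975), a row whose symbol had been turned into the date 4-Sep (0.973) and Tmem215 (0.964). Isl1 had the closest neighbours of the 8, Ntng1 (0.994), Dclk2 (0.991) and Gprasp2 (0.989). For Prkca they were Ppfia2 (0.957), Srpk2 (0.948) and Sh3gl2 (0.947), for Pcp2 Fam159b (0.948), Gm4792 (0.925) and Pnpla3 (0.924), and for Nyx Prox1 (0.905), Nipa1 (0.896) and Prmt6 (0.894). Trpm1 had the lowest values, with Mgll at 0.845, Lats2 at 0.819 and Igfbp4 at 0.811.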

How the data were processed

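Strand-specific libraries of polyadenylated RNA from single retinas were sequenced as paired reads. The study's methods state that the authors counted reads over exons of RefSeq genes with HOMER, while the submitters' processing notes name TopHat2, Bowtie2, Cufflinks, Cuffdiff and build mm10, without roles. Which of these made the deposited values, and whether strand was used, is not given in the sources used here. The unit of the deposited table was inferred to be FPKM: for genes with transcripts of at least 1500 bases, low values times transcript length less 170 fell within 0.1 of a whole fragment for 75.4% to 81.1% of values, which also gave the depth estimates. These cover counting error only, and the lowest values rest on few fragments.

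Values were analysed as log2(FPKM + 1) over 18509 genes above 0 in at least 1 library, so that differences of low genes are understated. limma 3.58.1 (R 4.3.3) was fitted to all 12 libraries with 1 mean per group and a variance trend, with Benjamini-Hochberg adjustment at 0.05. Contrasts were IOP-treated against control without GCV, with GCV and averaged, their difference, and GCV against none. The code was tested on simulated data. Eyes of 1 mouse are paired by animal; the correlation of their deviations from the group means over 12910 genes was -0.117, 0.132, 0.207, 0.388, 0.166 and 0.1 in mice 1 to 6, and the fit with mouse as a block was an alternative, as were adding 0.1 in place of 1, keeping genes that reached 1 FPKM in 3 libraries, median-ratio scaling, only the groups compared, an unadjusted p and each library left out. Genes named are the 8, the 9 cascade partners, the 3 most abundant and any called gene of each bipolar list, and the 3 most correlated genes; some withheld items among them are not reported here. The 8 genes and all lists were chosen with earlier results of these data known. Gene positions are from GENCODE M21 and promoters from RefSeq, in which all 8 genes were found. Tables and figures were made with matplotlib 3.10.9, numpy 2.4.6 and pandas 2.3.3 in Python 3.11.15.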

Additional observations from a re-analysis of the deposited data

How the results depend on the processing

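In the 3 IOP comparisons, 1 of 424 values of the 8 genes under another setting changed sign: Trpm1 with GCV ran from -0.483 to 0.021 over fits with 1 library less, and was above 0 only without that of the IOP-treated eye of mouse 5. The number of the 8 that were called (0, 0 and 0 without GCV, with GCV and averaged) became 1, 3 and 5 at an unadjusted p under 0.05, which 18.9%, 19.2% and 30.3% of all genes reached. The averaged number became 2 when genes had to reach 1 FPKM in 3 libraries (Vsx1, adjusted p = 0.043, and Cabp5, 0.0392), where fewer genes were tested and 19.7% of them were called. Leaving out single libraries gave 0 to 2 without GCV and 0 to 4 averaged. The 2 and the 4 came without the IOP-treated retina of mouse 4, where 13.5% and 24.5% of all genes were called. Of the 53 further bipolar genes, 3, 1 and 13 were called. An unadjusted p gave 27, 13 and 40. Only the groups compared gave 1 and 0 (1.8% and 0.512% of all genes), mouse as a replicate block gave 0, 0 and 5 (0.405%, 0.778% and 7.3%), and the filter gave 2 with GCV and 22 averaged (3.41% and 19.7%). Single libraries left out gave 0 to 28, 0 to 7 and 3 to 41. The 41 came without the IOP-treated retina of mouse 4, a fit that called 13.5% of all genes without GCV and 24.5% averaged. For the 0 to 7 with GCV the share of all genes is not given here. Pairing the eyes with the block changed no call of the 8 genes. Signs of the differences between treatments were not stable when single libraries were left out: the interaction ran from -0.479 to 0.261 for Vsx1, -0.180 to 0.323 for Trpm1, -0.285 to 0.115 for Prkca, -0.566 to 0.425 for Pcp2, -0.354 to 0.180 for Cabp5 and -0.202 to 0.646 for Isl1. GCV in IOP-treated retinas ran from -0.099 to 0.641 for Vsx1, -0.302 to 0.097 for Prkca, -0.447 to 0.544 for Pcp2 and -0.111 to 0.422 for Cabp5, and GCV in control retinas from -0.033 to 0.190 for Grm6, -0.206 to 0.045 for Nyx, -0.038 to 0.011 for Prkca and -0.065 to 0.270 for Pcp2. The cause of these shifts was not tested. Scaling by median ratios moved libraries by -0.0104 to 0.0112 on the log2 scale. Calls of Vsx1 were also gained in the averaged comparison without the IOP-treated GCV retina of mouse 1 (adjusted p = 0.0461, limma), and of Cabp5 without that of mouse 2 (0.0466). The shares of all genes called in these fits are not given here, so whether the gains are particular to the 8 cannot be told.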
